A study of Homo sapiens with 5 samples.

Results

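The genes described here are 43 genes of DNA replication and of the G1/S step of the cell cycle, chosen by symbol from a fixed list. All 43 had a row among the 27933 gene symbols of the deposited table, and all 43 passed the low-value filter of a mean of at least 1 FPKM (fragment counts scaled to transcript length and to the mapped total of the library), as did 12196 genes in all. RNA was sequenced from HaCaT cells, an established human keratinocyte line that divides without limit, in 2 control libraries (genotype control, labelled NC) and 3 libraries with the genotype AHNAK knockdown (labelled KD). AHNAK encodes a very large scaffold protein, and the series title ties it to the proliferation and differentiation of keratinocytes. The labels call the cells knockdown and the design text calls them knockout. The column names of the knockdown libraries carry the letters si. Beyond these letters, neither the labels nor the design text names the interfering reagent, the time after treatment or whether replicates came from separate cultures. The p-values therefore reflect no more than the spread among 5 libraries, which may be technical.

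A cell copies its genome in steps that these genes divide between them. In G1 the origin recognition complex, with CDC6 and CDT1, loads the MCM2 to MCM7 ring onto origins. At the start of S phase CDC45 and GINS join the ring to form the active helicase, polymerases and the sliding clamp PCNA (loaded by RFC) copy the strands, and ribonucleotide reductase and thymidylate synthase supply the nucleotides. Many of these genes are transcribed at the G1/S step by E2F factors once RB proteins release them, and in skin they mark the dividing basal keratinocytes.

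The promoters of the members shared a sequence feature that the choice by symbol did not use. RefSeq promoter windows (GRCh38.p14, 250 bases before to 50 after the transcript start) were given for 39 of the 43, the others being MCM4, MCM5, GINS4 and RPA2. They were searched on both strands for 4 E2F-type forms, TTTCCCGC, TTTGGCGC, TTTCGCGC and TTTGCCGC, which may overlap each other. A match stood in 21 of 39 member windows (53.8%), in 15 of 69 windows of other genes of the pathway (21.7%), in 5.55% of windows of all tested genes and in 3.33% of all 27305 windows of the same length. In the G2/M reference list, genes of mitosis, 2 of 21 windows held one (9.52%).

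The 18 member windows without a match are not printed, and those of TIPIN and RFC2 are among them. The stretches below were picked from members that hold a match and are named in the results that follow. Each is 120 bases, 5′ to 3′ on the strand of the gene, from 100 bases before to 20 after the start (for MCM6 from -170 to -51), with E2F-type matches in capitals.
MCM2, chr3:127598311-127598430, plus strand: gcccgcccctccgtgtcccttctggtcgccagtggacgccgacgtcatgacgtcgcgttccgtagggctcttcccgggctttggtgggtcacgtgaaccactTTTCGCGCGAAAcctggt
MCM6, chr2:135876494-135876613, minus strand: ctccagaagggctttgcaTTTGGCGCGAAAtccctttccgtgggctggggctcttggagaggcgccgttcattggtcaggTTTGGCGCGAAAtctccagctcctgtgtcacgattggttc
MCM7, chr7:100101378-100101497, minus strand: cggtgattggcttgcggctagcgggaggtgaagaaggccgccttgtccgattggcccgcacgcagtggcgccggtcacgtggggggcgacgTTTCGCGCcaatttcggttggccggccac
GINS2, chr16:85688935-85689054, minus strand: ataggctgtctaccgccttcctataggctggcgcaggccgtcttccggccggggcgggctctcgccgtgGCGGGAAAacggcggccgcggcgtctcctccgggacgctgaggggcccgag
RFC3, chr13:33818049-33818168, plus strand: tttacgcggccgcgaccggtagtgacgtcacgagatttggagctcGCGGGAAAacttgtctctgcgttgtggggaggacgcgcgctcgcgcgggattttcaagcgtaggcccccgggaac
CDT1, chr16:88803689-88803808, plus strand: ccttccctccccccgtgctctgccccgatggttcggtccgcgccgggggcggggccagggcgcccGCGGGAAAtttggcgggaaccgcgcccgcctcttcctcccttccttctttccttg
PCNA, chr20:5126603-5126722, minus strand: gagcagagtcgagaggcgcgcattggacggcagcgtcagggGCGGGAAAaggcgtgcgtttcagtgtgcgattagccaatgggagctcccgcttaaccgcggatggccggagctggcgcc
UHRF1, chr19:4909401-4909520, plus strand: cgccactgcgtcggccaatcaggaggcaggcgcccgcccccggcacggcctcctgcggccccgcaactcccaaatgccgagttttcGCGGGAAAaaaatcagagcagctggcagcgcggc
E2F1, chr20:33686366-33686485, minus strand: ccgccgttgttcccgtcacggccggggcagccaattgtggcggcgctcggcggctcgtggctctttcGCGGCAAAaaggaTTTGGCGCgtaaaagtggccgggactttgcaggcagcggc
E2F2, chr1:23531214-23531333, minus strand: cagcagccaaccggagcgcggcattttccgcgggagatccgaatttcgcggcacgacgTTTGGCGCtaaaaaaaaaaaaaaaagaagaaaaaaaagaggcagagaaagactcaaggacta
CLSPN, chr1:35769959-35770078, minus strand: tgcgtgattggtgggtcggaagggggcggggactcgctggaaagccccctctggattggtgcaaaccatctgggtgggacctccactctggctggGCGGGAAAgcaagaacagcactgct

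MCM6 held 4 matches, as 2 overlapping pairs that each read TTTGGCGCGAAA, and MCM2 held an overlapping pair that reads TTTCGCGCGAAA and lies 3 to 14 bases after the start. All 4 MCM2 to MCM7 windows in the table and all 3 GINS windows held a match, against 1 of 4 RFC windows (RFC3) and 0 of 2 ORC windows. Of the 28 member matches 22 (78.6%) were centred between 100 bases before and 50 after the start, against 51.8% of the 954 matches in all windows. CCAAT letters, on either strand, stood in 59% of member windows, 53.6% of the other pathway windows, 81% of G2/M windows and 35.7% of all windows. The letters TTTGAA are those of the CHR element of many G2/M genes. They stood in 1 member window (RRM1, 2.56%) and in 14 of 21 G2/M windows (66.7%). Their share was 9.36% of windows of all tested genes and 15.4% of all windows. These are matches of letters in a fixed window, and the deposited files do not measure binding.

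**Figure D1:**
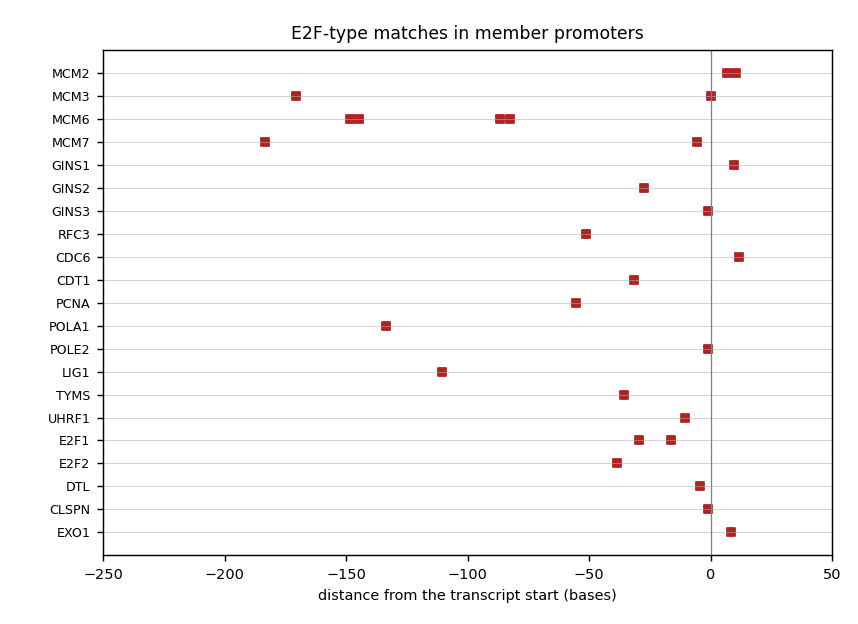
Position of each E2F-type match in the 21 member promoters that hold one; the horizontal axis is the distance in bases from the transcript start, each square is 1 match, and the grey line is the start. Of 28 matches, 22 are centred from 100 bases before to 50 after the start, and MCM6 holds 4.

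Before the comparison, the libraries were checked against their labels. AHNAK (ENSG00000124942.13) stood at 205 and 242 FPKM in the control libraries and at 114, 69.6 and 115 FPKM in the knockdown libraries (replicates 1, 2 and 3), lower in every one, and did not pass over all genes (log2 difference -1.19, SE 0.24; limma, Benjamini-Hochberg adjusted p = 0.372). FPKM sums ranged from 374210 to 420540, and read totals are unknown. All 10 keratinocyte markers had a mean of at least 1 FPKM. Their summed level was 6842 and 8394 FPKM in the control libraries and 4568 to 6304 FPKM in knockdown. At an unadjusted p under 0.05 there were 3 of 10 (KRT14, KRT6A and KRT17), all lower, where 5.48% of all tested genes were. Markers of fibroblasts, melanocytes and endothelial cells summed to 1.52 to 10.2 FPKM in any library. The summed fibroblast list was 3.30 and 5.02 FPKM in the control libraries and 6.12 to 10.2 FPKM in knockdown, with PDGFRA at 0 in 4 of 5 libraries. Of its 3 tested genes DCN (log2 difference 1.78) and COL3A1 (0.74) were higher at an unadjusted p under 0.05, where 6.22% of all tested genes were. The third, COL1A1, was at -0.40. TYR was at 0 in all 5 and PTPRC in 4 of 5. Of 6 immune markers only CD68, also a lysosomal gene of other cells, had a mean of at least 1 FPKM, at 15.5 and 17.6 FPKM in the control libraries and 20.4 to 27.7 FPKM in knockdown. The part of these marker levels in the results below was not tested.

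A property of the libraries bears on every comparison below. Low FPKM values moved in shared steps within 2 sets of libraries: 16.98% to 25.1% of low genes had the same ratio between libraries within a set, and at most 3.96% between sets. Set A holds control replicate 1 and knockdown replicates 1 and 3, set B control replicate 2 and knockdown replicate 2, and no label describes them. Over 11768 tested genes, deviations of knockdown replicate 1 from the gene mean were correlated with transcript GC content at Spearman's rho = 0.61 and those of knockdown replicate 3 at -0.55, while the other 3 lay between -0.00053 and 0.18. Over the 43 members the same values were 0.56 and -0.47, across genes that share these libraries. Differences are therefore given within each set too, and after a loess correction for transcript GC content and length within each library.

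No member passed the threshold between knockdown and control. Of the 43 members 0 had a Benjamini-Hochberg adjusted p under 0.05 in limma over all genes, where 0% of tested genes did, and the smallest value was 0.387 (CLSPN). At an unadjusted p under 0.05 there were 2 members (4.65%), E2F2 and CLSPN, where 11.7% of all tested genes were. Both were lower, where 5.48% of all genes were, and 0 were higher, where 6.22% were. After the GC and length correction 3 members were lower (UHRF1, E2F2 and CLSPN) and 2 higher (RFC2 and TIPIN) at that level, where 18.2% of all genes reached it. The groups did not overlap in 8 members (18.6%), where 32% of all genes did not overlap. Of these 6 were lower (13.95%; 15.8% of all genes) and 2 higher (4.65%; 16.2% of all genes). These shares lay near or below those of all genes. In RNA of whole cultures, fewer cells in S phase and less of a transcript per cell cannot be told apart.

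The direction of the small differences leaned downwards. Log2 differences (knockdown minus control), taken after adding 0.5 FPKM, which understates the change of low genes, were below 0 in 28 of 43 members (65.1%), where 48.7% of all genes were, and above 0 in 15 (34.9%), where 51.3% were. Their median was -0.07, beside 0.0070 over all genes, with a range from -0.68 (UHRF1) to 0.42 (TIPIN). In set A 29 of 43 were lower (51.4% of all genes) and in set B 35 of 43 (49.9% of all genes). In both sets 25 members were lower (58.1%), where 28.5% of all genes were, and 4 were higher (9.30%), where 27.2% were. The other 14 had opposite signs in the sets. The members' median was -0.0027 without control replicate 1, with 22 of 43 lower, and -0.026 without knockdown replicate 2, with 26 lower. The SD between replicates of the members' mean level was 0.09 on the log2 scale, larger than the median itself.

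For most members the limma intervals limited the size of a difference among these libraries rather than its direction. The intervals rest on the spread among the 5 libraries and take no account of the 2 sets. The 95% interval of the log2 difference lay within -1 to 1 for 40 of 43 members and within -0.5 to 0.5 for 21. The other 3, whose intervals reached beyond -1, were UHRF1, E2F2 and POLD1. The median SE was 0.15. Of the 27 members whose fits were repeated with each library left out, 23 had a difference that moved by over 1.5 times or turned in at least 1 repeat, and the other 4 were MCM4, RFC2, E2F2 and CLSPN.

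**Figure D2:**
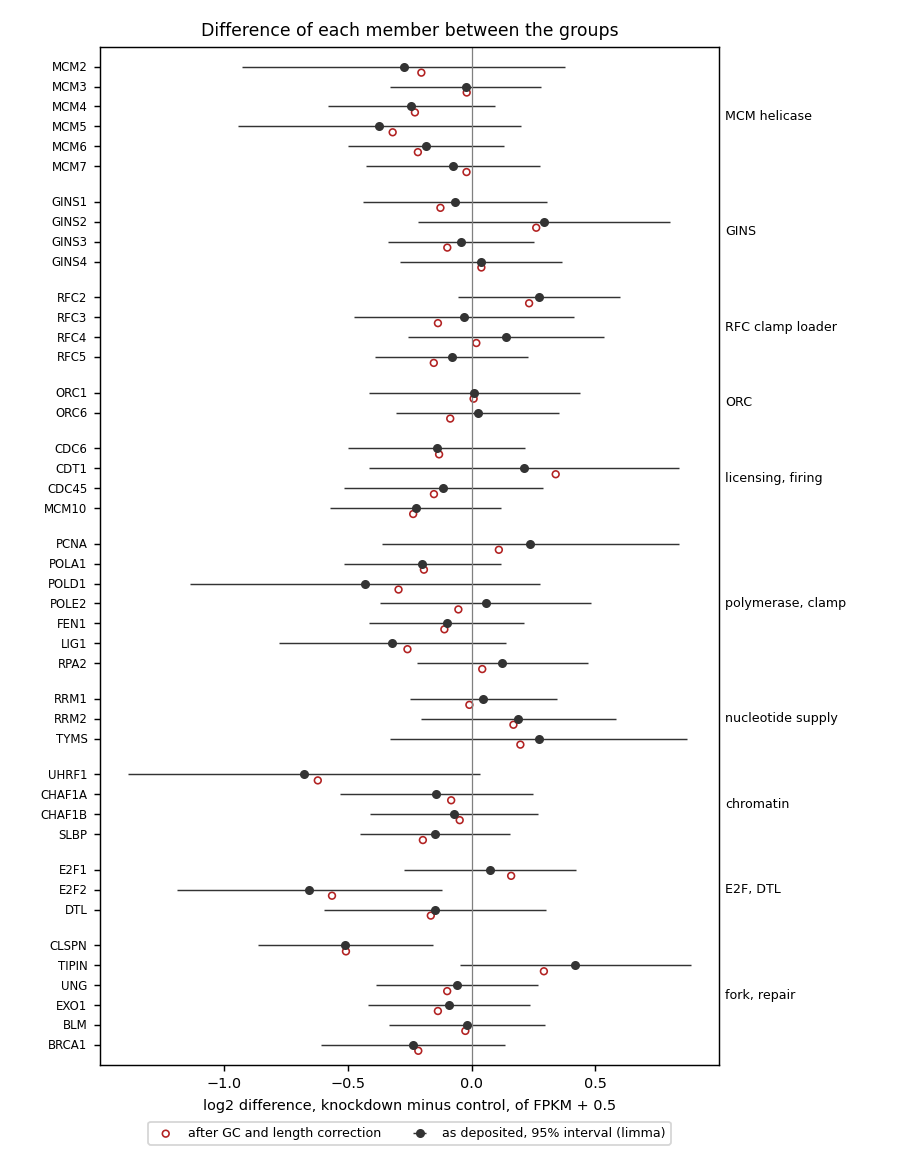
Log2 difference, knockdown minus control, of each of the 43 members, by role; black points with bars are the values as deposited with the 95% interval of limma (2 control and 3 knockdown libraries), and open circles the values after the GC and length correction. The bars of CLSPN and E2F2 alone exclude 0 (unadjusted), and all 6 MCM helicase points lie left of 0.

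The MCM helicase, the ring of 6 related ATPases that unwinds DNA at the fork, had all 6 members lower, and did so within each set. MCM5 stood at 79.99 and 68.999 FPKM in the control libraries and at 75.9, 57.6 and 42.9 FPKM in the knockdown libraries (replicates 1, 2 and 3), a log2 difference of -0.37 (SE 0.24, set A -0.48, set B -0.26). It was -0.17 without knockdown replicate 3 and -0.58 without knockdown replicate 1. MCM2 stood at 112 and 91.2 against 112, 89.1 and 58.3 FPKM (-0.27, set A -0.47, set B -0.03). In both, knockdown replicate 3 was the lowest library and knockdown replicate 1 reached the level of the controls, so the groups overlapped. MCM4 stood at 81.3 and 73.1 against 72.9, 62.2 and 60.7 FPKM (-0.24, SE 0.14, set A -0.29, set B -0.23), below both controls in every knockdown library. MCM6, at 32.5 and 28.5 against 28.4, 25.1 and 26.8 FPKM (-0.18, set A -0.23, set B -0.18), likewise did not overlap, with knockdown replicate 1 only just below control replicate 2. MCM7 stood at 125 and 117 against 131, 110 and 104 FPKM (-0.07), and MCM3 differed by -0.02. MCM7 and MCM3 thus spanned the controls. None passed (adjusted p 0.537 to 0.955).

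The median over the ring was -0.21 (set A -0.26, set B -0.13). Without knockdown replicate 3 it was -0.09, and without control replicate 1 -0.11, and leaving out knockdown replicate 3 put MCM2 at -0.015 and MCM7 at -0.0041. The summed level of the 6 was 499.6 and 441.5 FPKM in the control libraries and 489.9, 407.0 and 355.6 FPKM in knockdown, so knockdown replicate 1 lay between the controls and the other two below both. MCM transcripts were richer in GC (median 54.1%) than the members as a whole (48.1%). After the GC and length correction all 6 remained lower with a median of -0.21.

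Per length, MCM7 was the most abundant of the ring and MCM6 the least in all 5 libraries. Their ratio was 3.85 and 4.10 in the controls and 4.62, 4.40 and 3.89 in knockdown, overlapping. MCM2 came next in 4 of 5, and MCM3, MCM4 and MCM5 changed places between libraries, with levels that did not differ beyond their spread. The proteins form the ring in equal numbers, and the FPKM levels of their mRNAs were not equal.

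GINS, the 4-subunit complex that joins CDC45 and MCM in the active helicase, had 2 members lower and 2 higher, with a median of -0.0028 (set A 0.02, set B -0.12). GINS2 stood at 29.3 and 36.5 FPKM in the control libraries and at 38.8, 32.6 and 51.2 FPKM in knockdown (0.29, SE 0.21, adjusted p = 0.609 in limma). Knockdown replicate 3 was its highest library and knockdown replicate 2 lay between the controls, so set A gave 0.60 and set B -0.16; the difference was 0.12 without knockdown replicate 3 and 0.14 without control replicate 1. GINS1 stood at 11.4 and 12.2 against 11.4, 9.60 and 12.9 FPKM (-0.07, set A 0.09, set B -0.33). GINS3 and GINS4 differed by -0.04 and 0.04. GINS2 was the most abundant of the 4 in every library, from 2.79 to 5.50 times the lowest subunit of the same library, while GINS1, GINS3 and GINS4 lay between 9.26 and 12.9 FPKM and exchanged places.

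The RFC clamp loader opens and loads the PCNA ring, with RFC2 to RFC5 as its small subunits. Here 2 were higher and 2 lower, with a median of 0.05 (set A 0.11, set B -0.03) and of -0.07 without knockdown replicate 3. RFC2 stood at 24.7 and 27.1 FPKM in the control libraries and at 30.3, 29.1 and 34.8 FPKM in knockdown (0.27, SE 0.14, adjusted p = 0.485), above both controls in every knockdown library and higher in both sets (0.39 and 0.10). RFC4 stood at 39.8 and 41.8 against 41.5, 40.3 and 54.3 FPKM (0.14), and only knockdown replicate 3 left the range of the controls. RFC3 stood at 21.99 and 19.7 against 17.1, 19.5 and 25.4 FPKM (-0.03), with the lowest and the highest library both in the knockdown group, and RFC5 differed by -0.08. The large subunit RFC1, outside the 43, differed by -0.16, lower in every knockdown library. RFC4 was the most abundant small subunit and RFC2 the next in all 5 libraries, and RFC3 and RFC5 did not differ beyond their spread. After the GC and length correction the median of the 4 was -0.06, with RFC4 at 0.02 and RFC2 at 0.23.

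Of the origin recognition complex, ORC1 and ORC6 were among the members. ORC1, whose protein comes and goes with the cell cycle, stood at 11.9 and 9.52 FPKM in the control libraries and at 12.2, 11.4 and 8.95 FPKM in knockdown (0.01, 95% interval -0.41 to 0.44). ORC6 stood at 19.8 and 19.4 against 19.2, 18.3 and 22.5 FPKM (0.02, interval -0.31 to 0.35). In both genes the knockdown libraries spanned the controls, and the sign of the difference was opposite between the sets for each gene (ORC1 -0.18 and 0.24, ORC6 0.07 and -0.08). The sign also flipped for both when libraries were rescaled to the same FPKM sum. The 4 other subunits, ORC2 to ORC5, differed by -0.01, 0.16, 0.03 and 0.07.

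Side by side, the medians of the complexes were -0.21 for MCM, -0.0028 for GINS, 0.05 for RFC and 0.02 for ORC. The SD between replicates of their mean level was 0.19, 0.11, 0.15 and 0.08 on the log2 scale, in that order. No test of the differences between complexes was made, since the complexes were chosen with results known. The complexes lay farthest apart in knockdown replicate 3. Its mean deviation from the gene means was -0.28 for MCM, 0.14 for GINS and 0.24 for RFC, while knockdown replicate 2 was at -0.10, -0.13 and -0.08 and control replicate 2 at 0.03, -0.01 and -0.04. Control replicate 1 was at 0.21, -0.05 and -0.05 and knockdown replicate 1 at 0.15, 0.05 and -0.08, with MCM the highest of the 3 complexes in both. Median transcript GC content was 54.1%, 48.0% and 45.0% in the same order, and after the correction the deviations of knockdown replicate 3 were -0.19, 0.06 and 0.03. Over the single libraries, knockdown replicate 3 was the highest for 14 of 43 members (30.04% of all tested genes) and the lowest for 16 (28.0% of all genes). Knockdown replicate 2 was the highest for 0 members (23.3% of all genes) and the lowest for 17 (18.2%). Control replicate 1 and knockdown replicate 1 were each the highest for 14 members (19.6% and 12.1% of all genes), and control replicate 2 for 1 (14.9%).

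**Figure D3:**
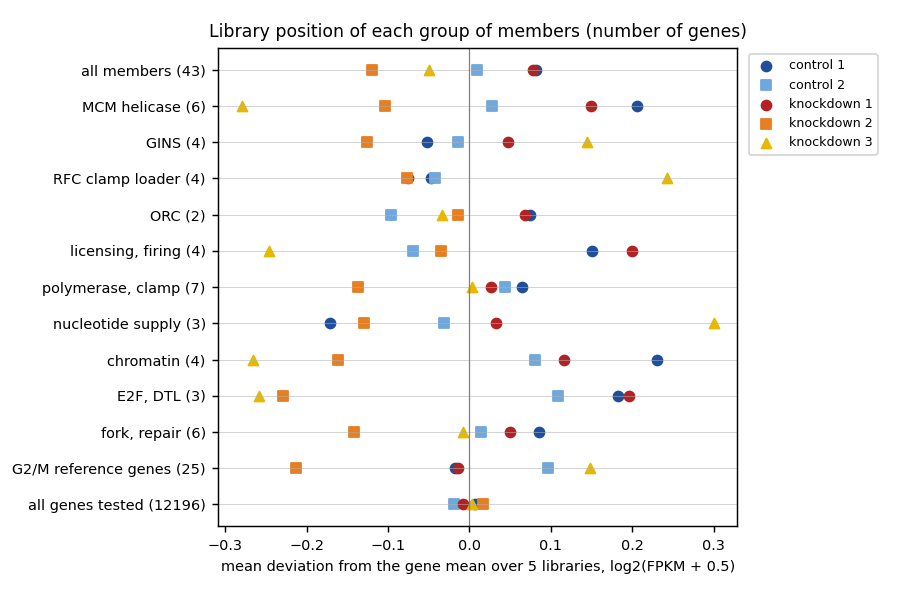
Mean deviation of each library from the gene mean over the 5 libraries, on the log2(FPKM + 0.5) scale, for the members, their role groups, the G2/M reference genes and all tested genes (number of genes in brackets); each symbol is 1 library. Knockdown replicate 3 lies lowest for MCM (-0.28) and highest for RFC (0.24) and nucleotide supply (0.30), and knockdown replicate 2 lies below 0 in every group of members shown.

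The licensing and firing factors gave 3 members lower and 1 higher. CDC6, the ATPase that helps to load MCM, stood at 33.1 and 28.5 FPKM in the control libraries and at 31.3, 27.2 and 25.2 FPKM in knockdown (-0.14, set A -0.23, set B -0.06; from -0.033 without control replicate 1 to -0.25 without control replicate 2). CDT1, its partner in loading, went the other way, at 28.4 and 23.5 against 39.0, 32.8 and 21.0 FPKM (0.21, SE 0.26, set A 0.01, set B 0.47). Knockdown replicates 1 and 2 were above both controls and knockdown replicate 3 below both. Its transcript had 64.9% GC, among the highest of the members, and the difference was 0.46 without knockdown replicate 3 and 0.34 after the correction. MCM10, which helps to activate the loaded helicase, stood at 11.3 and 9.06 against 9.15, 8.47 and 8.18 FPKM (-0.23, set A -0.37, set B -0.09; -0.073 without control replicate 1, -0.38 without control replicate 2), where the lowest control lay just under the highest knockdown library. CDC45 differed by -0.11.

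Among the polymerases, the clamp and the enzymes of Okazaki fragments, 4 members were lower and 3 higher. PCNA, the sliding clamp, stood at 85.4 and 106 FPKM in the control libraries and at 95.5, 94.6 and 157 FPKM in knockdown. Its log2 difference of 0.24 (SE 0.25) rested on knockdown replicate 3: without it the difference was -0.0042, since the other 2 knockdown libraries lay between the controls (set A 0.52, set B -0.17). POLA1, the catalytic subunit of the primase polymerase, was below both controls in every knockdown library, at 5.63 and 5.06 against 4.91, 4.46 and 4.41 FPKM (-0.20, SE 0.13; -0.13 without control replicate 1). LIG1, the ligase that seals Okazaki fragments, stood at 20.1 in both controls and at 20.6, 14.2 and 13.98 FPKM in knockdown (-0.32, SE 0.19, set A -0.23, set B -0.49; -0.50 without knockdown replicate 1), where knockdown replicate 1 was just above the controls and the other two were lower. POLD1, the catalytic subunit of polymerase delta with the highest GC content of the members (65.0%), had the same pattern with a difference of -0.43 (SE 0.30) and of -0.29 after the correction. FEN1, the flap endonuclease, differed by -0.10, POLE2 by 0.06 and RPA2, of the single-strand binding complex, by 0.12.

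The 3 genes of nucleotide supply were all higher in the pooled comparison and all lower in set B, and RRM1 was at -0.0088 after the correction. RRM2, the regulated subunit of ribonucleotide reductase, stood at 43.2 and 48.3 FPKM in the control libraries and at 54.6, 43.8 and 59.2 FPKM in knockdown (0.19, SE 0.17, set A 0.39, set B -0.14; 0.097 without knockdown replicate 3). TYMS, thymidylate synthase, stood at 16.4 and 19.9 against 18.3, 18.4 and 31.0 FPKM (0.27, SE 0.25, set A 0.53, set B -0.11), and only knockdown replicate 3 left the range of the controls; without it the difference was 0.02. RRM1 differed by 0.05. RRM2 was 0.706 and 0.8002 times as abundant as RRM1 in the controls and 0.823, 0.747 and 0.927 times in knockdown, overlapping.

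In the chromatin group all 4 members were lower on the values as deposited, in the pooled comparison and in each set. After the GC and length correction all 4 stayed lower in the pooled comparison, but CHAF1A and CHAF1B were at 0.03 and 0.04 in set A. UHRF1, which brings DNA methylation to newly copied strands, had the largest difference of the 43 on the values as deposited, close to that of E2F2, which was the larger in set B and without control replicate 1 or knockdown replicate 3. It stood at 29.03 and 21.96 FPKM in the control libraries and at 21.6, 16.8 and 10.4 FPKM in knockdown, a mean of 25.5 ± 4.99 (SD, n = 2) against 16.3 ± 5.59 FPKM (SD, n = 3). Every knockdown library lay below both controls, though knockdown replicate 1 was close to control replicate 2. The log2 difference was -0.68 (SE 0.30, set A -0.93, set B -0.37; limma adjusted p = 0.444), and it was -0.62 after the GC and length correction, -0.40 without knockdown replicate 3 and -0.48 without control replicate 1. DNMT1, the maintenance methyltransferase that UHRF1 recruits, is outside the 43 and was also below both controls throughout, at 50.6 and 45.0 against 44.8, 32.2 and 25.0 FPKM (-0.52). SLBP, which binds the stem-loop of histone mRNAs, stood at 31.5 and 28.4 against 26.5, 25.8 and 28.5 FPKM (-0.15; -0.073 without control replicate 1). The histone chaperone subunits CHAF1A and CHAF1B differed by -0.14 and -0.07.

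E2F1 and E2F2, activator E2F factors, which bind sites of the type searched above, had unlike values. E2F2 (ENSG00000007968.6, chromosome 1, 23506430 to 23531220, minus strand of GRCh38) was measured at 7.02 and 7.70 FPKM in the control libraries and at 6.20, 3.59 and 4.04 FPKM in knockdown. Its means were 7.36 ± 0.48 (SD, n = 2) and 4.61 ± 1.40 FPKM (SD, n = 3), and every knockdown library was below both controls. The log2 difference was -0.65 (SE 0.22, unadjusted p = 0.0235, limma adjusted p = 0.394). It was -0.45 within set A, -1.01 within set B and -0.56 after the correction. E2F1 stood at 14.1 and 13.5 against 16.8, 13.4 and 13.6 FPKM (0.07), with knockdown replicate 1 above the other 4 libraries, which lay close together. The ratio of E2F2 to E2F1 was 0.4997 and 0.570 in the controls and 0.370, 0.268 and 0.297 in knockdown, lower in every knockdown library; this ratio was chosen after the values had been seen. DTL, the adaptor that marks CDT1 for destruction in S phase, stood at 12.4 and 10.02 against 12.02, 10.05 and 8.27 FPKM (-0.15, set A -0.30, set B 0.0035; -0.0027 without control replicate 1, -0.018 without knockdown replicate 3).

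Among the genes of fork protection and repair, 5 were lower and 1 higher. CLSPN (claspin, which carries the checkpoint signal from ATR to CHEK1; ENSG00000092853.13, chromosome 1, 35720218 to 35769967, minus strand of GRCh38) had the smallest p of the members. It stood at 6.21 and 4.98 FPKM in the control libraries and at 4.02, 3.67 and 3.59 FPKM in knockdown, means of 5.59 ± 0.87 (SD, n = 2) and 3.76 ± 0.23 FPKM (SD, n = 3), without overlap. The log2 difference was -0.51 (SE 0.15, unadjusted p = 0.0114, limma adjusted p = 0.387). It was -0.64 within set A, -0.39 within set B and -0.51 after the correction. CLSPN had the lowest mean level of the 43, where the added 0.5 FPKM compresses a difference most. BRCA1 stood at 11.3 and 11.1 against 11.1, 8.37 and 8.89 FPKM (-0.24, SE 0.16; -0.16 without knockdown replicate 2), where knockdown replicate 1 lay within the controls and the other two below. UNG, EXO1 and BLM differed by -0.06, -0.09 and -0.02.

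TIPIN was the member with the largest difference upwards. Its protein pairs with TIMELESS to hold the fork together when it stalls. It stood at 7.68 and 9.64 FPKM in the control libraries and at 10.9, 10.0 and 14.6 FPKM in knockdown (0.42, SE 0.20, limma adjusted p = 0.464), above both controls in every knockdown library (set A 0.68, set B 0.05). After the correction the difference was 0.29, and without knockdown replicate 3 or control replicate 1 it was 0.26 in each case. TIMELESS, outside the 43, went the other way, at 21.2 and 20.9 against 19.9, 14.4 and 14.5 FPKM (-0.38). The ratio of TIPIN to TIMELESS was 0.362 and 0.460 in the controls and 0.548, 0.696 and 1.006 in knockdown, a ratio also chosen after its values were seen. An annotated RPL9 pseudogene overlaps 579 exonic bases of TIPIN on the same strand, and the counting of shared reads is not given in the sources used here.

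**Figure D4:**
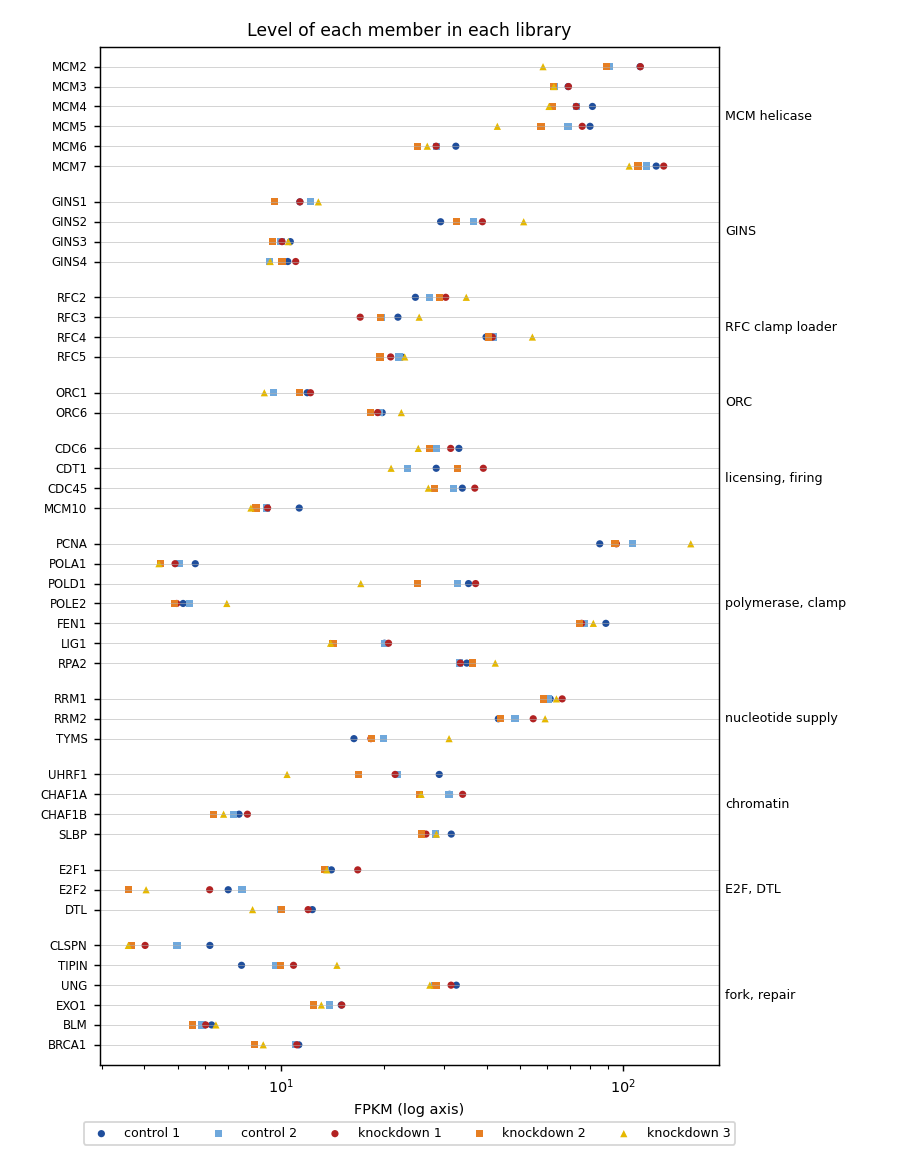
FPKM on a log axis of each of the 43 members in each of the 5 libraries, by role; blue symbols are controls and the others knockdown. Levels run from a mean of 4.49 FPKM (CLSPN) to 117.5 FPKM (MCM7), and MCM7, GINS2 and RFC4 lead their complexes in all 5 libraries.

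The 43 members were well expressed, with a median of 21.6 FPKM beside 10.7 FPKM over all tested genes; 8 had a mean of 50 FPKM or more and 7 a mean under 10 FPKM. Some share sequence with neighbours. TYMS overlaps 967 exonic bases of ENOSF1 on the opposite strand and MCM2 1113 bases of an antisense gene, and RRM2 shares 1077 exonic bases with another annotated gene on its own strand. Pseudogenes named after PCNA (3), RPA2 (3), RRM2 (3), TYMS (2) and UNG (2) are annotated too. Whether counting used strand is not given in the sources used here, so the levels of these genes are less certain.

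Members with and without an E2F-type match had overlapping differences. Of the 21 members with a match 15 were lower, with a median of -0.07 and a range from -0.68 to 0.29. Of the 18 without a match 11 were lower, with a median of -0.07 and a range from -0.43 to 0.42. The ends of the first range were UHRF1 and GINS2, and those of the second were POLD1 and TIPIN.

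**Figure D5:**
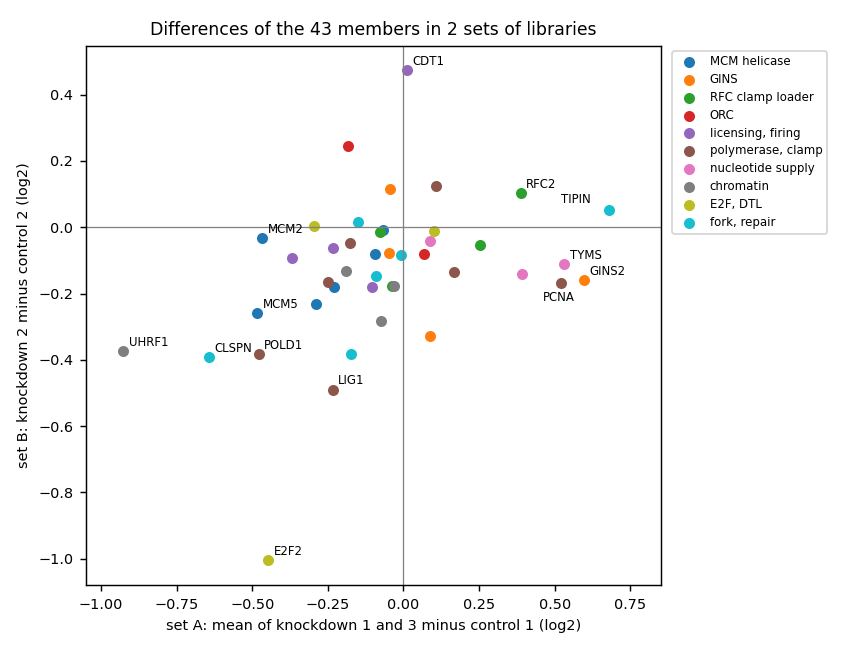
Log2 difference of each of the 43 members in set A (mean of knockdown replicates 1 and 3 minus control replicate 1) against set B (knockdown replicate 2 minus control replicate 2), coloured by role. The lower left holds 25 members, the upper right 4, and GINS2, TYMS and PCNA lie among the 14 of opposite signs.

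The other genes of the pathway, 87 in 6 lists outside the 43, were split between higher and lower. Of these 87, 0 passed in limma over all genes, where 0% of tested genes did. At an unadjusted p under 0.05 there were 3, all lower, where 11.7% of all genes reached that level and 5.48% were lower. The median difference was -0.03 with 49 lower and 38 higher. The list of other G1/S control genes, which holds those 3, had 10 lower and 10 higher, with a median of -0.0062. Of the G1/S control list, CCNE1, a cyclin that drives entry into S phase, stood at 4.54 and 3.34 against 2.64, 2.57 and 2.07 FPKM (-0.59, unadjusted p = 0.0139). CCNE2, its relative, was at -0.36, and CDKN1A, the p21 inhibitor of cyclin kinases, stood at 73.0 and 108 against 53.6, 25.8 and 58.8 FPKM (-1.02; set A -0.38, set B -2.04; -0.66 without knockdown replicate 2). All 3 were below both controls in every knockdown library, where 15.8% of all genes were, and none passed (adjusted p 0.387 to 0.426).

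In the other lists the genes of smallest p were mostly lower and did not pass. TOPBP1 and TICRR, firing factors, differed by -0.28 and -0.37, POLE3, a polymerase epsilon subunit, by -0.30, and the mismatch and checkpoint genes MSH6 and ATR by -0.23 and -0.23. SAMHD1, an enzyme that degrades nucleotides, differed by 0.18, and RBBP4, a histone chaperone subunit, by 0.22. The list of other fork and polymerase subunits had 9 of 18 lower and a median of 0.0066.

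Mitotic genes did not follow the library order of the members as a whole. The 25 G2/M reference genes had a median of -0.03, with 14 lower and 11 higher. Set A was at 0.09 and set B at -0.32, and 24 of 25 were lower in set B. MKI67 stood at 68.1 and 62.98 against 58.2, 43.7 and 38.2 FPKM (-0.51, adjusted p = 0.406) and ANLN differed by -0.35. Knockdown replicate 3 was the highest library for G2/M genes (mean deviation 0.15) and at -0.05 over all members. Among the members it was the lowest library for MCM (-0.28) but the highest for GINS (0.14), RFC (0.24) and nucleotide supply (0.30), as for G2/M genes. Knockdown replicate 2 was low for G2/M genes (-0.21) and for MCM (-0.10).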

How the data were processed

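RNA sequencing of 2 control and 3 AHNAK knockdown HaCaT libraries was used as 1 table of FPKM values deposited by the authors, 1 row per symbol. The submitters' processing notes name HISAT2 2.0.1, StringTie 2.0.6 and the builds GRCh38 and mm9 without roles; the annotation and any use of strand were not given in the sources used here. FPKM values carry no read totals, so depth is unknown and no count test was run. Values were analysed as log2(FPKM + 0.5) for the 12196 genes whose mean reached 1 FPKM, with limma 3.58.1 in R 4.3.3 (lmFit, eBayes with trend), two-sided, with Benjamini-Hochberg adjustment over all genes and a threshold of 0.05. An exact permutation test of 2 against 3 libraries has 10 splits and cannot go below 0.1, so none is given. The fit was first tested on simulated data with independent noise and changes larger than that of any member. The simulation held no sets of libraries and no GC effect, so it does not speak to the small differences given here.

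The members and lists were chosen with earlier results of these data known. Genes were named by rule: the 2 members of smallest p in each of 10 role lists and a fixed set of members, and outside them the 2 genes of smallest p in each other list and CCNE1, CCNE2 and MKI67. The 16 remaining members are given by their differences or ranges, MCM6 by library. RFC1, ORC2 to ORC5 and the markers fall outside that rule and were named after their values were seen. The printed ratios between genes fall outside it too and were chosen after the values were seen. A gene that the rule names outside the members is not reported here. GC content and length came from GENCODE release 29 (GRCh38; 96.5% of tested genes and all 43 members matched; unmatched genes stayed uncorrected), and the loess span was 0.3. Promoters are from RefSeq (GRCh38.p14). Of 39 member windows, the last 30 bases of 27 stood in a GENCODE transcript of the gene on the strand given and of 0 on the other strand. Alternatives were other pseudocounts (0.1 and 1), filters, scalings, variance models, array weights, a set term, a replicate block, the GC and length correction and each library left out.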

Additional observations from a re-analysis of the deposited data

How the results depend on the processing

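Read totals are unknown, so what depth limits cannot be stated. Over all fits 0 of the 43 members passed except with limma array weights, which gave 2 (E2F2 at -0.86 and CLSPN at -0.53) among 1428 genes with weights of 3.98 for knockdown replicate 2 and 0.257 for knockdown replicate 3; AHNAK was at -1.55 there. Genes called numbered 1 with a pseudocount of 1, with no trend in eBayes and with robust eBayes, and 0 to 10 with a library left out (10 without control replicate 1). Genes at an unadjusted p under 0.05 numbered 1427, against 4285 with array weights, 2223 after the GC and length correction, 862 at a mean of at least 5 FPKM, 828 with the set term, and 563 to 2090 with a library left out. Members at that level numbered 2, both lower, where 11.7% of all genes reached it. This share and those in brackets below count all genes in either direction. With array weights 9 members were lower and 0 higher (35.1%), and without knockdown replicate 1 there were 7 lower and 0 higher (17.1%). After the GC and length correction 3 were lower and 2 higher (18.2%). With the replicate block 2 were lower and 1 higher (8.01%), and with the block and that correction 3 were lower and 1 higher (9.31%). Without knockdown replicate 2 there was 1 lower and 1 higher (6.06%), and likewise without knockdown replicate 3 (14.5%). The members' median ran from -0.12 to -0.0027 with a library left out, MCM from -0.30 to -0.09, GINS from -0.04 to 0.06, RFC from -0.07 to 0.15, ORC from -0.068 to 0.10 and AHNAK from -1.32 to -0.95. In set B alone the GINS median was -0.12. Replicate numbers showed no pairing of the libraries: deviations of same-numbered libraries from their group means were correlated at -0.06 and -0.58. With 2 controls, the deviations of one are those of the other with the sign turned. The 2 values are therefore not separate checks. The second pair is also set B, so the libraries of that set did not deviate alike. Knockdown replicate 3 has no control of the same number, so a replicate block takes it out of the difference. The block thus gave the same log2 differences as the fit without that library, and is no separate check of them. With the block 0 genes were called, 31 of 43 members were lower and the members' median was -0.07. MCM was at -0.09 and RFC at -0.07. With the block and the GC correction the members' median was -0.06.

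Over 41 named genes and all alternatives, the sign held in 826 of 857 fits. That count includes fits that change only the filter or the variance model. These leave the difference of a gene as it was, so its sign could not turn there. It turned in 31: in set B for GINS2 (-0.16), RFC4 (-0.052), ORC6 (-0.080), RRM2 (-0.14), TYMS (-0.11), DTL (0.0035), PCNA (-0.17) and E2F1 (-0.012), and in set A for GINS1 (0.087) and ORC1 (-0.18). ORC6 turned with an equal FPKM sum (-0.029), array weights (-0.071), the replicate block (-0.062), the GC and length correction (-0.086) and that correction with the block (-0.056). ORC1 turned with an equal FPKM sum (-0.041) and the set term (-0.00012), PCNA with the block (-0.0042) and the block with the GC correction (-0.0056), RRM2 and E2F1 with array weights (-0.0021 and -0.0034) and DTL with the GC correction and block (0.0038). With a library left out, the sign turned for 6 genes, whose values ran from -0.16 to 0.039 (GINS1, above 0 without knockdown replicate 2), -0.062 to 0.083 (ORC6, below 0 without knockdown replicate 3), -0.15 to 0.17 (ORC1, below 0 without control replicate 2 or knockdown replicate 1 or 2), -0.0042 to 0.40 (PCNA, below 0 without knockdown replicate 3), -0.19 to 0.094 (RFC3, above 0 without control replicate 1 or knockdown replicate 1) and -0.028 to 0.13 (E2F1, below 0 without knockdown replicate 1). The cause of these turns was not tested. Those of ORC6 and PCNA with the block alone are the same values as without knockdown replicate 3, and are counted in both. Of the members 32 of 43 were lower after rescaling to the same FPKM sum, which moves the median of all genes to -0.044.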
